A study of Mus musculus with 9 samples.

Results

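The NF-kB pathway and its inflammatory targets were examined in mouse KSL cells, bone marrow cells sorted for c-Kit and Sca-1 and against lineage markers and IL7Ra, among which are stem cells and early progenitors. The genes were chosen by name, as 32 factors, regulators and targets of the pathway. Of these, 30 had a probe set with 1 gene symbol and were analysed, among 12393 genes in all. Nfkb1 and Chuk were not analysed here. The brightest probe set represented each gene.

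The study held 9 arrays, each from 1 biological replicate on a C57BL/6 background, with 3 in each of 3 groups. RUNX1(41-214) cells carried a retroviral vector that expresses residues 41 to 214 of RUNX1, a stretch with the DNA-binding Runt domain, and were taken 4 months after transduction and transplantation. Runx1KO mice (Runx1 floxed/floxed, MxCre+/-) were sampled 3 months after poly IC, an RNA mimic that switches on Mx-Cre and itself raises interferon. Control mice (Runx1 floxed/floxed, MxCre-/-) lacked Cre and had the same poly IC treatment and interval. Thus Runx1KO and control mice shared the floxed alleles and poly IC, while for RUNX1(41-214) cells no poly IC is named. Their differences from the other groups cannot be told apart from those of transplantation, transduction and poly IC. Mx-Cre acts in many cell types, so that the deletion was not limited to blood cells. The labels do not say how many animals gave each replicate.

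NF-kB is a family of dimeric transcription factors held in the cytoplasm by IkB proteins. Signals from receptors for TNF, interleukin 1 or microbial products activate the IkB kinase complex, which marks IkB for destruction and lets the dimers enter the nucleus. A separate route runs through the kinase NIK (Map3k14) and processing of the p100 protein made from Nfkb2. In blood progenitors the pathway governs survival and inflammatory output, and RUNX1 has been reported to bind the IkB kinase complex and to dampen its activity. The factors are controlled largely after translation, whereas several inhibitors and cytokines are themselves transcribed in response to NF-kB, so that mRNA levels do not measure the activity of the factors.

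Promoter sequence was read for 24 of the 30 genes from RefSeq (GRCm38.p6), as the 250 bases before each annotated start. The kB motif was searched as GGG, 3 bases of any kind and TTCC, and the RUNX motif as TGTGGT, each on both strands. The kB letters were in 10 of 31 windows of these genes, against 4.65% of all 32851 windows, and in at least 1 window of 7 of the 24 genes, against 5.31% of all genes with a window: Nfkb2, Rel, Nfkbia, Nfkbie, Tnfaip3, Tnip1 and Cxcl2. The RUNX letters were in 5 of 31 windows, against 14% of all windows, and at 5 of the 24 genes, against 15.9% of all genes: Rel, Tnip1, Traf1, Ccl3 and Ptgs2. The 6 windows below are shown because they hold these letters in 2 inhibitors, a subunit and 3 targets described in the results. Capitals mark the motif letters, and the sequences run 5′ to 3′ on the gene's strand.
Nfkbia, chr12:55492648-55492897, minus strand: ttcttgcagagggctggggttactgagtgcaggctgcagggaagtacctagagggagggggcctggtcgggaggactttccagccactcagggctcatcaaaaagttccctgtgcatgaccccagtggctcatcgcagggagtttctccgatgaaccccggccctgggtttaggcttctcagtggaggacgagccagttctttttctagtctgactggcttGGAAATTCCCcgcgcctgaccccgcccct
Tnip1, chr11:54962941-54963190, minus strand: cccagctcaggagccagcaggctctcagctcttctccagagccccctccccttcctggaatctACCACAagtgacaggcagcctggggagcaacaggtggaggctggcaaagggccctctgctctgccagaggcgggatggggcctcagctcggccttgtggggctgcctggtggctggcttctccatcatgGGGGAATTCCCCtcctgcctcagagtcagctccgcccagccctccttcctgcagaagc
Rel, chr11:23770970-23771219, minus strand: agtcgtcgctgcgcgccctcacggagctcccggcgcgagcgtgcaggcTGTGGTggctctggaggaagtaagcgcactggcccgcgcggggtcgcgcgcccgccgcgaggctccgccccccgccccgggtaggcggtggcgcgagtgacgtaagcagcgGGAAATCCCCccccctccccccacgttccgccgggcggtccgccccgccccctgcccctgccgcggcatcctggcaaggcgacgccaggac
Cxcl2, chr5:90903649-90903898, plus strand: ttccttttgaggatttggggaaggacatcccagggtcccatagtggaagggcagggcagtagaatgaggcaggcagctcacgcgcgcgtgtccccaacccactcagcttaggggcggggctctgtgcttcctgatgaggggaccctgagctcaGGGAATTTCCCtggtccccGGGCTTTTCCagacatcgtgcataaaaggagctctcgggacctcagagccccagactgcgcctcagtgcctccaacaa
Ccl3, chr11:83649379-83649628, minus strand: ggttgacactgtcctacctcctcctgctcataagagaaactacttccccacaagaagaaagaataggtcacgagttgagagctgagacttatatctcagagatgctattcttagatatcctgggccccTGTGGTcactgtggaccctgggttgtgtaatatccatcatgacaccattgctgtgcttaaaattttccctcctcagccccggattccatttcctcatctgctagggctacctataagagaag
Ptgs2, chr1:150099781-150100030, plus strand: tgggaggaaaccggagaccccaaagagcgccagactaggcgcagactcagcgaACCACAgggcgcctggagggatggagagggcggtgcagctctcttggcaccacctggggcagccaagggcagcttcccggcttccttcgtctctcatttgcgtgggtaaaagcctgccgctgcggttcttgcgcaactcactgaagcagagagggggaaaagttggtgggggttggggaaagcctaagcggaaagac
Nfkbia has 1 kB match that begins 29 bases before the start, and Rel has 1 kB match and 1 RUNX match. Tnip1 and the 5′ site of Cxcl2 hold kB letters that read on both strands and overlap, and Cxcl2 has a further match that begins 78 bases before its start. In Ccl3 and Ptgs2 the RUNX letters begin 122 and 197 bases before the start and no kB letters of this form are in the window. A match describes letters, not binding.

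Values are log2(signal + 16) after quantile normalization. The scale starts at 4, and the offset shrinks the differences of dim genes, whose folds are therefore too small. Differences were tested with limma over all 12393 genes, with Benjamini-Hochberg adjustment and a threshold of 0.05. Median deposited signals per array ran from 125 to 147. They were 126, 125 and 138 on the RUNX1(41-214) arrays and 137 to 147 on the other arrays. Part of the spread that quantile normalization removed thus followed the group. The log2 ratio of 3′ to 5′ Gapdh signal, a sign of RNA integrity, was 2.13 in Runx1KO replicate 3 and 1.85 in control replicate 2, against 0.98 to 1.29 on the other 7 arrays. For actin it was 1.98 and 0.99 on these arrays, against 0.44 to 0.88 on the other 7, so control replicate 2 stood apart mainly by Gapdh. Of the KSL genes listed, Kit, Cd34, Flt3, Gata2, Meis1 and Ptprc were measured, at levels between 9.98 and 12.36 on every array. Their log2 fold changes ran from -0.60 to 0.57 in RUNX1(41-214) and from -0.41 to 0.49 in Runx1KO against control. In RUNX1(41-214) 1 of the 6 passed, on the higher side (adjusted p = 0.0415), against 1.73% of all genes, and in Runx1KO 0 passed.

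None of the 30 genes passed the threshold in Runx1KO against control cells, in RUNX1(41-214) against control cells or in RUNX1(41-214) against Runx1KO cells. Over all genes, 0.347%, 4.28% and 1.36% passed in these 3 comparisons. At those shares 30 genes would hold about 0.104, 1.29 and 0.407 calls, so the absence of calls does not set the pathway apart from other genes. At an unadjusted p under 0.05 there were 0, 4 and 3 of the 30, against 7.22%, 15.5% and 10.6% of all genes. In the F test among the 3 groups 0 of 30 passed (4 at an unadjusted p under 0.05), against 3.4% of all genes (13.3% unadjusted). The lowest adjusted p of any member in the F test was 0.0998.

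**Figure D1:**
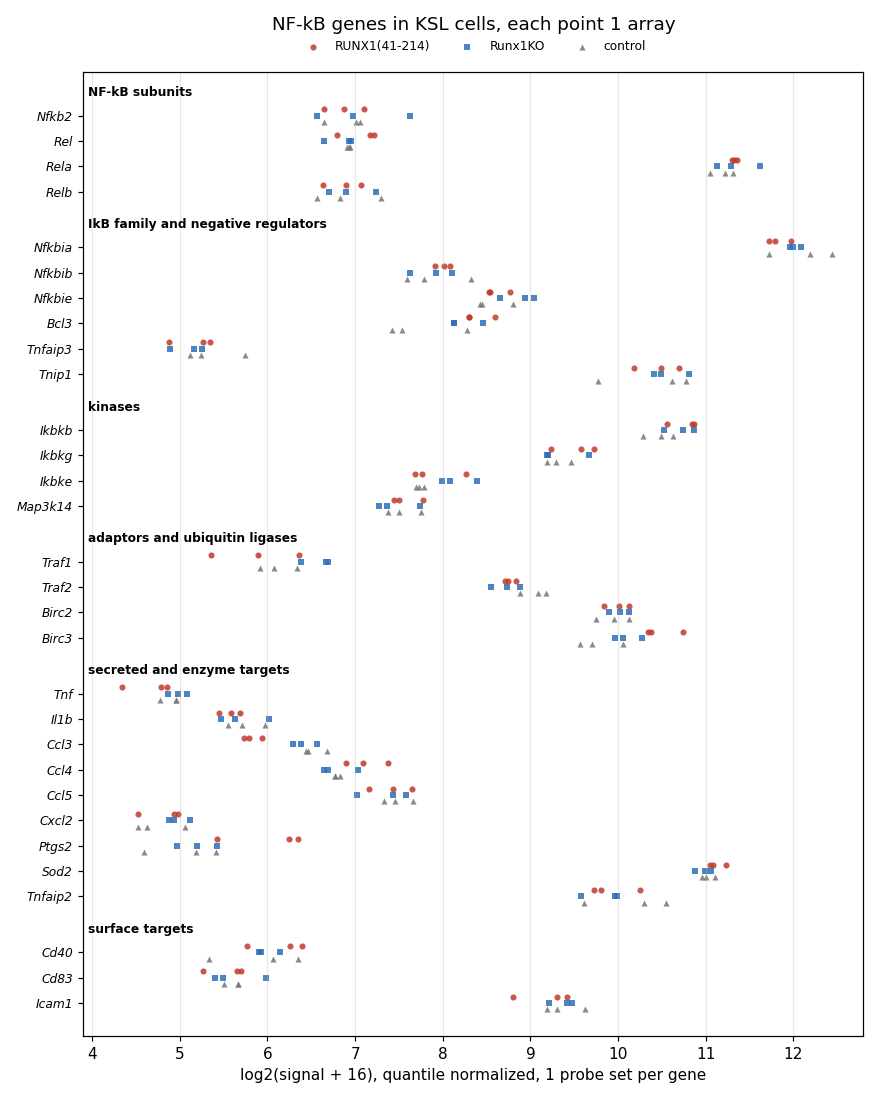
Level of each of the 30 genes on every array, as log2(signal + 16) after quantile normalization, grouped by role, with circles for RUNX1(41-214), squares for Runx1KO and triangles for control arrays. The groups lie on top of each other for most genes, and the RUNX1(41-214) arrays lie above all other arrays for Birc3, below them for Ccl3 and, with 1 array only just so, above them for Ptgs2.

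The differences were as small as those of other genes. In Runx1KO against control the median log2 fold change of the members was 0.041, with 17 above and 13 below 0, beside a median of -0.0040 over all genes. The median was 0.050 in RUNX1(41-214) against control, again with 17 above and 13 below, beside 0.018 over all genes. Between RUNX1(41-214) and Runx1KO it was 0.010 (15 above, 15 below), beside 0.016. The median absolute log2 fold change was 0.12, 0.18 and 0.15 for the members and 0.15, 0.18 and 0.16 for all genes. Replicates of a group varied by a median SD of 0.23 among the members and 0.24 over all genes, from 0.089 for Sod2 to 0.40 for Ptgs2.

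Intervals show what sizes the arrays leave possible on the log2 scale with the offset. On that scale a difference within 1 of 0 is under 2-fold in signal plus offset. For dim members such as Tnf, Cxcl2 and Tnfaip3 the offset compresses changes. There an interval within 1 of 0 can still hold more than a 2-fold difference in signal. In Runx1KO against control the 95% interval of the log2 fold change lay within 1 of 0 for 28 of 30 members. This held for 89.3% of all genes. The exceptions were Bcl3 and Traf1, whose intervals reached just past 1. For RUNX1(41-214) against control it did so for 26 of 30, against 83.8%, the exceptions being Bcl3, Birc3, Ccl3 and Ptgs2. Between RUNX1(41-214) and Runx1KO it did so for 28 of 30, against 86.7%, the exceptions being Traf1 and Ptgs2.

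**Figure D2:**
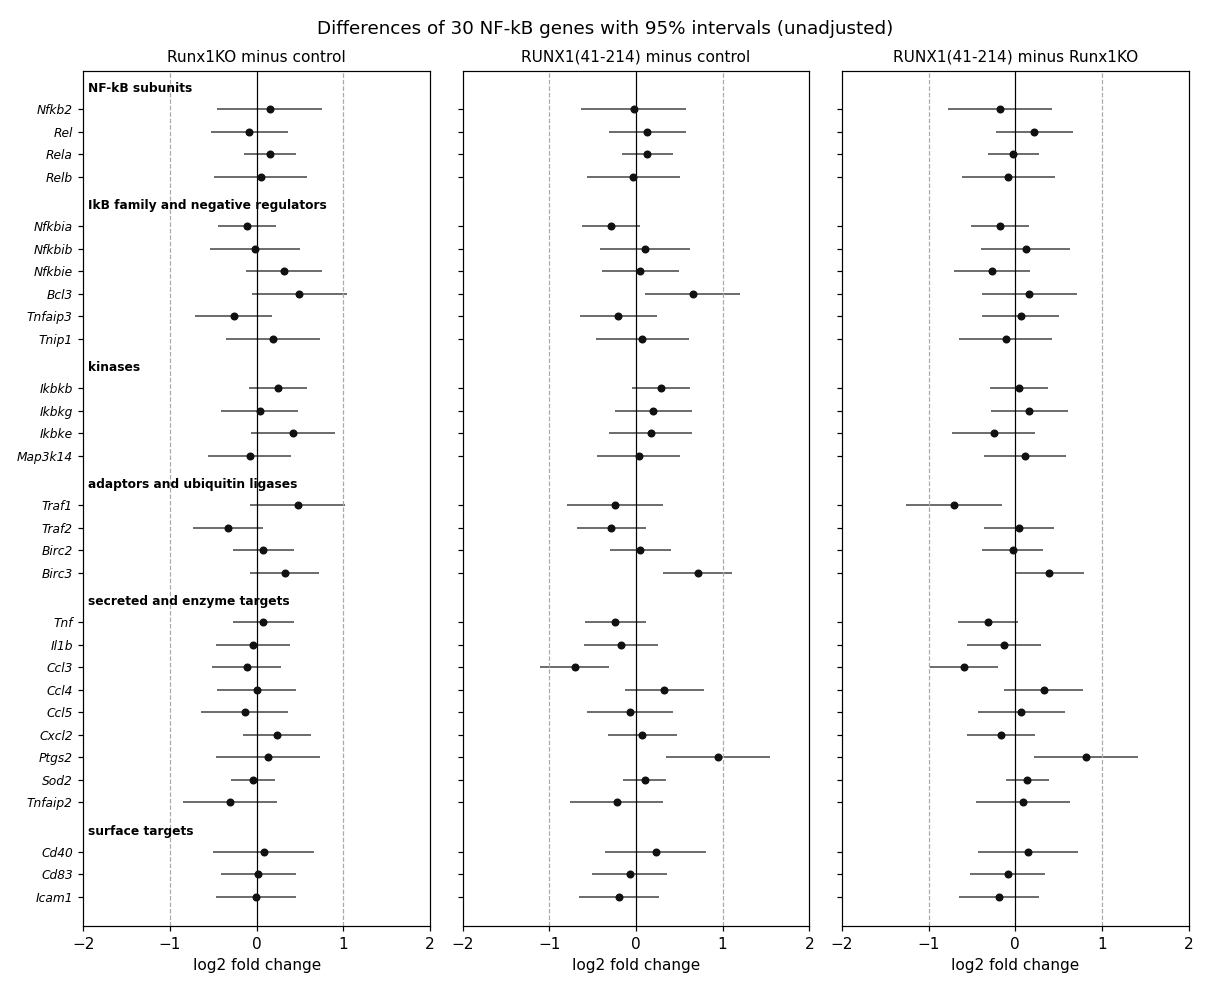
Log2 fold change of the 30 genes in the 3 comparisons, with points for the estimate and lines for its 95% interval, not adjusted for the number of genes. Dashed lines mark a 2-fold difference in signal plus offset in each direction, which for dim genes is a larger fold in signal. In Runx1KO against control 28 of 30 intervals lie between them.

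None of the DNA-binding subunits passed in any comparison. Rela, the main activating partner of the canonical route, was at 11.32, 11.36 and 11.30 in RUNX1(41-214) cells, 11.29, 11.62 and 11.13 in Runx1KO cells and 11.04, 11.31 and 11.22 in control cells. All 3 groups overlapped. Its log2 fold change was 0.15 ± 0.14 (SE) in Runx1KO and 0.13 ± 0.14 in RUNX1(41-214) against control. Relb, the subunit of the alternative route, was at 7.07, 6.90 and 6.64 in RUNX1(41-214) cells, 6.90, 7.24 and 6.71 in Runx1KO cells and 7.30, 6.83 and 6.57 in control cells. These groups overlapped as well. Nfkb2, which encodes p100, and Rel, the subunit c-Rel, completed the 4 measured subunits. Over the 4, log2 fold changes ran from -0.09 to 0.15 in Runx1KO against control, from -0.03 to 0.13 in RUNX1(41-214) against control and from -0.18 to 0.22 in RUNX1(41-214) against Runx1KO. Adjusted p-values of the 4 were 0.729 or more in the comparisons with control, and the 95% intervals all lay within 1 of 0.

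Of the inhibitors, Nfkbia encodes IkB alpha, which is destroyed and resynthesised in each round of signalling. It was at 11.79, 11.97 and 11.73 in RUNX1(41-214) cells, 11.96, 12.09 and 11.99 in Runx1KO cells and 12.19, 11.73 and 12.44 in control cells. Control replicate 2 had the lowest level of the control arrays, level with the lowest RUNX1(41-214) array, while the other control arrays lay above all RUNX1(41-214) arrays. The log2 fold change in RUNX1(41-214) against control was -0.29 ± 0.15 (adjusted p = 0.419). Without control replicate 2, whose 3′ to 5′ ratio was high for Gapdh but little raised for actin, it was -0.48 (adjusted p = 0.0334). Without both arrays of high Gapdh ratio it was -0.49 (adjusted p = 0.0326). The other 3 probe sets of Nfkbia were at -0.36, -0.15 and -0.43 in the same comparison, none past the threshold.

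Tnfaip3, the ubiquitin-editing enzyme A20 that ends the signal, was dim, at 5.34, 5.27 and 4.88 in RUNX1(41-214) cells, 5.16, 4.89 and 5.26 in Runx1KO cells and 5.75, 5.24 and 5.12 in control cells. The groups overlapped. Its partner Tnip1 and the inhibitors Nfkbib and Nfkbie were at log2 fold changes between -0.02 and 0.32 against control in both groups. Bcl3 is an atypical IkB protein that works in the nucleus with p50 and p52 dimers. Chosen after its values were seen, it was at 8.59, 8.30 and 8.30 in RUNX1(41-214) cells, 8.13, 8.45 and 8.12 in Runx1KO cells and 8.27, 7.42 and 7.54 in control cells. The RUNX1(41-214) arrays lay above all control arrays, by a small margin over control replicate 1, and the Runx1KO arrays overlapped them. Its log2 fold change was 0.65 ± 0.25 in RUNX1(41-214) (adjusted p = 0.219) and 0.49 ± 0.25 in Runx1KO (adjusted p = 0.754) against control.

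Among the kinases, Ikbkb encodes the catalytic subunit IKK beta of the IkB kinase complex. It was at 10.86, 10.84 and 10.55 in RUNX1(41-214) cells, 10.53, 10.87 and 10.74 in Runx1KO cells and 10.49, 10.63 and 10.29 in control cells. The groups overlapped, at log2 fold changes of 0.28 ± 0.15 in RUNX1(41-214) and 0.24 ± 0.15 in Runx1KO against control. Its dimmer probe sets differed in sign, none past the threshold. They were at 0.30, -0.31 and -0.13 in RUNX1(41-214) and at -0.09, -0.39 and 0.19 in Runx1KO against control. Map3k14, the kinase NIK, was at 7.44, 7.50 and 7.77 in RUNX1(41-214) cells, 7.37, 7.74 and 7.27 in Runx1KO cells and 7.37, 7.50 and 7.76 in control cells. Its levels coincided across the groups. Ikbke, a kinase related to TBK1, was the one kinase whose arrays did not overlap in a comparison. It averaged 8.16 ± 0.20 in Runx1KO cells and 7.74 ± 0.05 in control cells (SD, n = 3 each), and its log2 fold change was 0.42 ± 0.22 (SE, adjusted p = 0.762). Ikbkg, the regulatory subunit NEMO, had 4 probe sets, at 0.03 to 0.29 in Runx1KO and 0.10 to 0.20 in RUNX1(41-214) against control.

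The adaptors held the only member above the median signal whose adjusted p came close to the threshold. Birc3 encodes cIAP2, a ubiquitin ligase of TNF receptor complexes and itself a target of NF-kB. It was at 10.75, 10.38 and 10.34 in RUNX1(41-214) cells, 10.06, 9.96 and 10.27 in Runx1KO cells and 9.71, 9.57 and 10.06 in control cells. Every RUNX1(41-214) array lay above every array of the other groups. Its log2 fold change in RUNX1(41-214) against control was 0.71 ± 0.18 with a 95% interval of 0.31 to 1.11, and it missed the threshold (adjusted p = 0.0513). It passed without quantile normalization (adjusted p = 0.0437), without dim genes (0.0413), with array weights (0.0353) and without control replicate 3 (0.0382). The dimmer second probe set of Birc3 was at 0.41. Against Runx1KO it was at 0.39 ± 0.18 (adjusted p = 0.486).

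Its relative Birc2, which encodes cIAP1, was at 0.05 ± 0.16 in RUNX1(41-214) and 0.08 ± 0.16 in Runx1KO against control. Traf1, an adaptor induced by NF-kB that binds TRAF2 and the cIAPs, was at 6.36, 5.36 and 5.89 in RUNX1(41-214) cells, 6.39, 6.67 and 6.69 in Runx1KO cells and 5.92, 6.34 and 6.08 in control cells. The Runx1KO arrays were the highest of the 3 groups, with RUNX1(41-214) replicate 1 just below them. Its log2 fold change was 0.47 ± 0.25 in Runx1KO against control (adjusted p = 0.777) and -0.71 ± 0.25 in RUNX1(41-214) against Runx1KO (adjusted p = 0.293). Traf2 averaged 8.77 ± 0.07 in RUNX1(41-214) cells, 8.72 ± 0.17 in Runx1KO cells and 9.05 ± 0.15 in control cells (SD, n = 3 each), and neither difference from control passed (adjusted p = 0.524 and 0.797).

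The secreted and enzyme targets showed no common direction. Of the 9, 4 lay above 0 and 5 below in RUNX1(41-214) against control, and in Runx1KO against control 3 lay above and 6 below. Sod2, the mitochondrial superoxide dismutase, was bright and steady, at 11.08, 11.23 and 11.04 in RUNX1(41-214) cells, 10.88, 10.99 and 11.07 in Runx1KO cells and 11.01, 10.95 and 11.10 in control cells. It had the smallest replicate spread of all members, and its 95% interval in RUNX1(41-214) against control was -0.15 to 0.35. Cxcl2, a neutrophil-attracting chemokine, was near the lower end of the scale, at 4.52, 4.98 and 4.93 in RUNX1(41-214) cells, 4.93, 5.11 and 4.88 in Runx1KO cells and 4.52, 4.63 and 5.06 in control cells. Tnf, the cytokine that gives the TNF receptors their signal, was equally dim, at 4.34 to 4.85 in RUNX1(41-214) cells, 4.86 to 5.08 in Runx1KO cells and 4.78 to 4.96 in control cells. For such probe sets little signal is left above the offset, and a change would be compressed. The inflammatory cytokine Il1b was at log2 fold changes of -0.17 ± 0.19 in RUNX1(41-214) and -0.04 ± 0.19 in Runx1KO against control.

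Both targets with the largest differences in RUNX1(41-214) cells, a chemokine and a prostaglandin enzyme, lay on opposite sides of 0 without passing the threshold. They were chosen after their values were seen. Ccl3, the chemokine MIP-1 alpha, which in mice restrains progenitor cycling, was at 5.73, 5.94 and 5.79 in RUNX1(41-214) cells, 6.38, 6.29 and 6.57 in Runx1KO cells and 6.68, 6.44 and 6.46 in control cells. All RUNX1(41-214) arrays lay below all others. Its log2 fold change was -0.71 ± 0.18 against control (95% interval -1.10 to -0.31, adjusted p = 0.0513) and -0.59 ± 0.18 against Runx1KO (adjusted p = 0.202). Against control it passed without quantile normalization (-0.80, adjusted p = 0.0284), with an offset of 50 (-0.48, adjusted p = 0.0474) and without dim genes (0.0336). It also passed with array weights (0.0367) and with the mean of probe sets (0.0255). Ccl3 has 1 probe set, so that mean left its value at -0.71 and changed only other genes in the fit. Its neighbour in function, Ccl4, lay on the other side of 0, at 0.33 ± 0.21 in RUNX1(41-214) against control (adjusted p = 0.517).

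Ptgs2, the inducible cyclooxygenase that makes prostaglandins, was at 5.43, 6.25 and 6.35 in RUNX1(41-214) cells, 5.20, 4.97 and 5.42 in Runx1KO cells and 5.41, 5.19 and 4.60 in control cells. RUNX1(41-214) replicates 2 and 3 stood well above the other 7 arrays, while replicate 1 only just exceeded the highest of them. The log2 fold change was 0.95 ± 0.27 against control (adjusted p = 0.0897) and 0.81 ± 0.27 against Runx1KO (adjusted p = 0.262). Without RUNX1(41-214) replicate 1 it was 1.24 against control (adjusted p = 0.0281). The second probe set of Ptgs2, dimmer still, was at -0.07. Tnfaip2 and the T cell chemokine Ccl5 were at -0.22 ± 0.25 and -0.07 ± 0.23.

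Of the surface targets, Icam1, the adhesion ligand of leukocyte integrins, was at 9.42, 9.30 and 8.80 in RUNX1(41-214) cells, 9.21, 9.48 and 9.41 in Runx1KO cells and 9.63, 9.30 and 9.19 in control cells. The low value of RUNX1(41-214) replicate 3 was the one array apart. Cd83, a maturation marker of dendritic cells, was dim, at 5.65, 5.70 and 5.27 in RUNX1(41-214) cells, 5.40, 5.99 and 5.49 in Runx1KO cells and 5.51, 5.66 and 5.66 in control cells. Cd40, the receptor for CD40 ligand, was at 0.23 ± 0.27 in RUNX1(41-214) and 0.08 ± 0.27 in Runx1KO against control. The 3 surface genes overlapped between groups in every comparison.

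Over all 30 genes, the arrays of the groups did not overlap for 2 in Runx1KO against control (Ikbke and Traf1), against 10.5% of all genes. This held for 6 in RUNX1(41-214) against control (Bcl3, Traf2, Birc3, Ccl3, Ccl4 and Ptgs2), or 20% of the members, against 20.3% of all genes. It held for 5 in RUNX1(41-214) against Runx1KO (Traf1, Birc3, Tnf, Ccl3 and Ptgs2), against 18.8%. These counts are near the background share or below it.

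**Figure D3:**
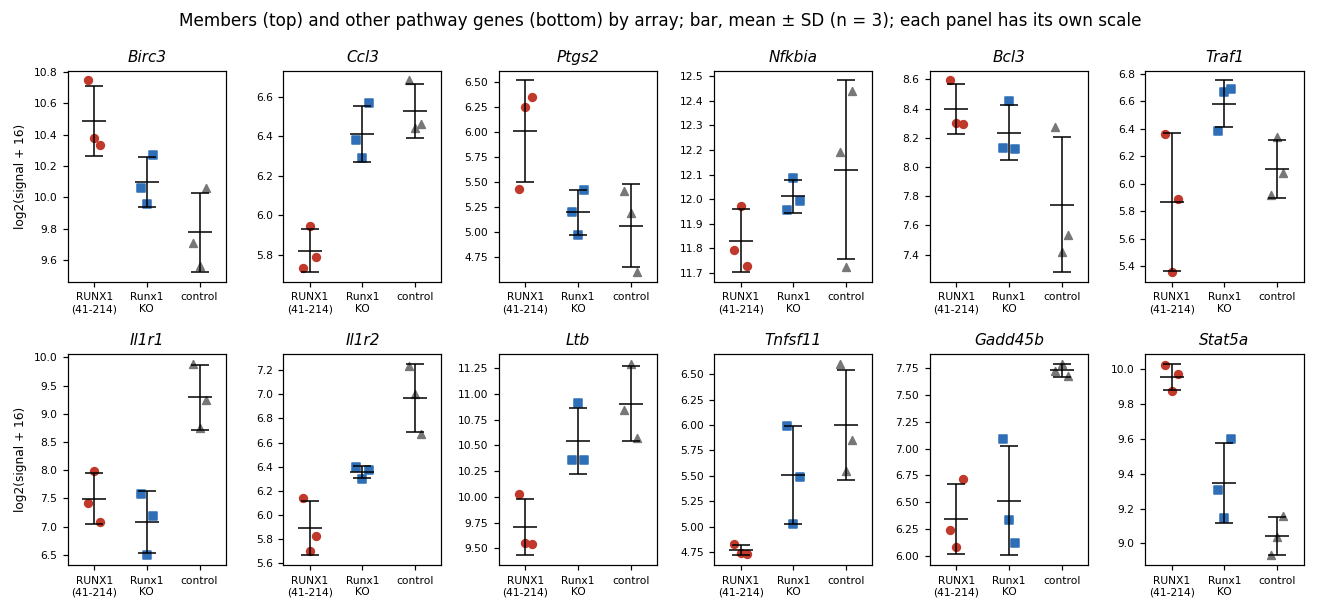
Level of 6 members (top) and 6 other genes of the pathway (bottom) on every array, as log2(signal + 16), with a bar for the mean ± SD (n = 3) of RUNX1(41-214), Runx1KO and control arrays and a separate scale for each panel. Among the members shown, the RUNX1(41-214) arrays do not overlap the others for Birc3, Ccl3 and Ptgs2, in the last by a small margin. Among the other genes shown they do not for Il1r2, Ltb, Tnfsf11 and Stat5a, while Il1r1 is lower in both RUNX1(41-214) and Runx1KO than in control arrays.

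Genes around the core of the pathway were read from a further list of 90 genes, of which 73 were measured. Some of these passed. In Runx1KO against control 1 of 73 fell and 0 rose, and in RUNX1(41-214) against control 5 fell and 2 rose, against 0.113% lower and 0.234% higher and 2.56% lower and 1.73% higher over all genes. Between RUNX1(41-214) and Runx1KO 0 of 73 passed in limma, against 0.299% higher and 1.06% lower over all genes. At the shares of all genes, 73 genes would hold about 0.253 calls in Runx1KO and 3.13 in RUNX1(41-214) against control. At an unadjusted p under 0.05 there were 7, 20 and 8 of 73 in Runx1KO against control, RUNX1(41-214) against control and RUNX1(41-214) against Runx1KO. Those shares were 7.22%, 15.5% and 10.6% of all genes, which would give about 5.27, 11.3 and 7.73. Median log2 fold changes of the 73 were 0.066, 0.085 and -0.024 in the 3 comparisons.

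Receptors and ligands held 4 of the 5 falls in RUNX1(41-214) cells and the fall in Runx1KO cells. Il1r1, the signalling receptor for interleukin 1, was at 7.43, 7.98 and 7.08 in RUNX1(41-214) cells, 7.58, 6.49 and 7.18 in Runx1KO cells and 9.89, 8.74 and 9.24 in control cells. Every array of both groups lay below every control array. It fell by 2.21 ± 0.36 on the log2 scale in Runx1KO (adjusted p = 0.0279) and by 1.80 ± 0.36 in RUNX1(41-214) (adjusted p = 0.0139). The 2 differences share the control arrays, and Il1r1 was at 0.41 ± 0.36 in RUNX1(41-214) against Runx1KO (adjusted p = 0.767). In Runx1KO the call was lost without control replicates 1 and 3 (adjusted p = 0.0838 and 0.0981), without Runx1KO replicates 2 and 3 (0.127 and 0.0929), without RUNX1(41-214) replicate 1 (0.0594), without both arrays of high 3′ to 5′ ratio (0.0504) and with only the 6 arrays compared (0.0975). In RUNX1(41-214) it was lost without control replicates 1 and 3 (0.0642 and 0.0513) and without RUNX1(41-214) replicates 1 and 3 (0.0651 and 0.0625).

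Il1r2, the decoy receptor that binds interleukin 1 without signalling, was at 6.14, 5.71 and 5.83 in RUNX1(41-214) cells, 6.40, 6.30 and 6.37 in Runx1KO cells and 7.24, 7.01 and 6.67 in control cells. The groups were fully separate, with Runx1KO between the others. It fell by 1.08 ± 0.21 in RUNX1(41-214) (adjusted p = 0.0117, and 0.0689 without RUNX1(41-214) replicate 2), and in Runx1KO it was at -0.62 ± 0.21 (adjusted p = 0.413). The coreceptor Il1rap was at 0.68 ± 0.32 in RUNX1(41-214) and 0.40 ± 0.32 in Runx1KO against control (adjusted p = 0.348 and 0.874).

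Ltb, the lymphotoxin beta subunit that feeds the alternative NF-kB route, was at 10.02, 9.55 and 9.54 in RUNX1(41-214) cells, 10.36, 10.91 and 10.36 in Runx1KO cells and 10.84, 11.30 and 10.57 in control cells. It fell by 1.20 ± 0.23 in RUNX1(41-214) (adjusted p = 0.0102, and 0.0543 without RUNX1(41-214) replicate 2). Tnfsf11, the ligand RANKL, was dim and fell by 1.23 ± 0.28 (adjusted p = 0.0302), to 4.74 to 4.83 in RUNX1(41-214) cells against 5.55 to 6.60 in control cells. Its call was lost without control replicates 1 and 3 (adjusted p = 0.0995 and 0.0742), without each of the RUNX1(41-214) replicates 1, 2 and 3 (0.0920, 0.111 and 0.0912) and with the mean of its probe sets (0.153). The receptors Tnfrsf1a, the main TNF receptor, and Tlr3, a sensor of the poly IC type of RNA, were at 0.18 ± 0.17 and 0.15 ± 0.32 in RUNX1(41-214) against control, named after their values were seen.

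The adaptors and signal kinases held no call in 14 measured of 23 listed genes. Their median was 0.083 in Runx1KO and 0.078 in RUNX1(41-214) against control, and the lowest adjusted p belonged to Tradd, the adaptor of TNF receptor 1, at -0.65 ± 0.18 in RUNX1(41-214) against control (adjusted p = 0.0829). Further negative regulators, with 8 of 15 measured, held no call either, and the lowest p was that of the deubiquitinase Otud7b (-0.50 ± 0.19 in RUNX1(41-214) against control, adjusted p = 0.205).

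Among 29 further targets 2 rose and 1 fell in RUNX1(41-214) against control. Stat5a, a transcription factor of cytokine receptors, was at 10.02, 9.87 and 9.97 in RUNX1(41-214) cells, 9.30, 9.14 and 9.60 in Runx1KO cells and 8.93, 9.03 and 9.16 in control cells. It rose by 0.91 ± 0.17 (adjusted p = 0.0111, and 0.0715 without RUNX1(41-214) replicate 1), and its second probe set was at 1.37. Bcl2l1, which encodes the survival protein Bcl-xL, rose by 0.76 ± 0.19 (adjusted p = 0.0414). That call was lost when any control array (adjusted p = 0.122, 0.0517 and 0.0562 without replicates 1, 2 and 3) or any RUNX1(41-214) array was left out (0.184, 0.155 and 0.0761), with the replicate number as a block (0.0567), with only the 6 arrays compared (0.0605), with all probe sets tested (0.0539) and with the mean of its probe sets (0.33, adjusted p = 0.358).

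Gadd45b, a stress gene induced by NF-kB, gave different answers by probe set. Its brightest one was at 6.24, 6.08 and 6.71 in RUNX1(41-214) cells, 7.09, 6.34 and 6.12 in Runx1KO cells and 7.72, 7.79 and 7.67 in control cells. This probe set fell by 1.38 ± 0.27 in RUNX1(41-214) (adjusted p = 0.0126, and 0.0666 and 0.0753 without RUNX1(41-214) replicates 1 and 2) and was at -1.21 ± 0.27 in Runx1KO (adjusted p = 0.104). Of the others, nearly as bright, one was at -0.75 and one at 0.96 in RUNX1(41-214) against control, the last past the threshold (adjusted p = 0.0155 over all probe sets). The mean of the probe sets was -0.39 (adjusted p = 0.236), so no direction can be given for the gene.

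**Figure D4:**
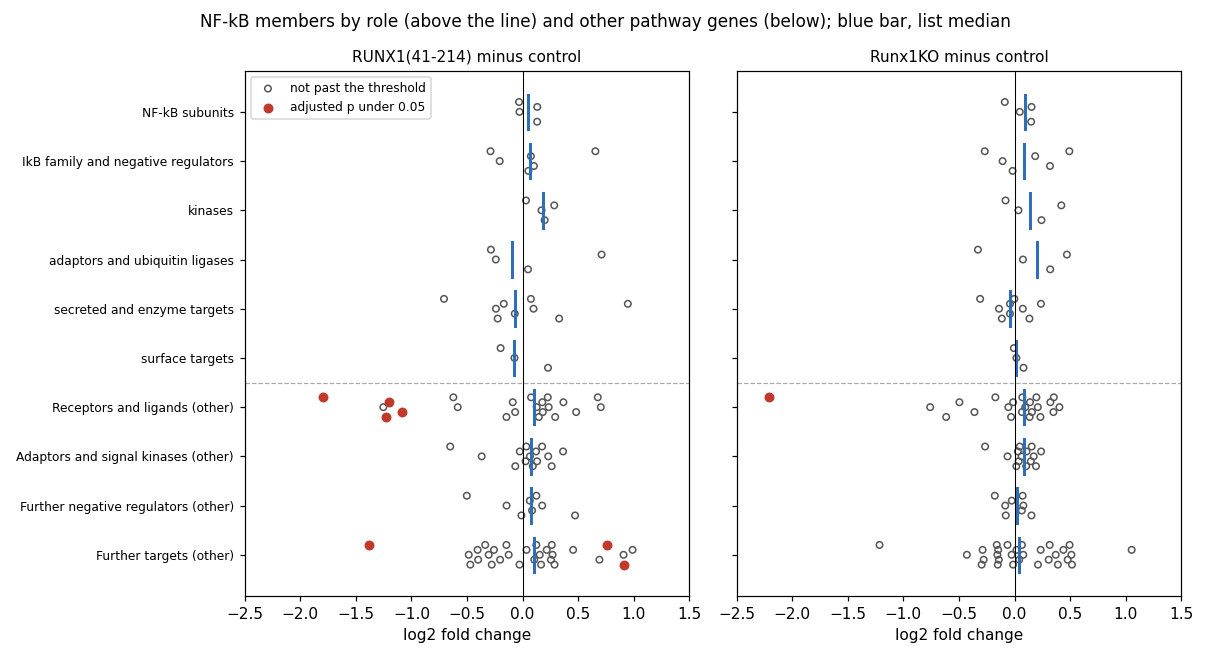
Log2 fold change of each gene in RUNX1(41-214) and in Runx1KO against control, with members by role above the dashed line and the other pathway genes below it, filled red where the adjusted p was under 0.05 and with a blue bar for the list median. No member is filled, 4 receptors and ligands are filled on the lower side in RUNX1(41-214), and Il1r1 is filled in Runx1KO.

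Markers of other cell types differed between the groups, and in such sorted populations fewer cells of a type and less RNA per cell cannot be told apart. The counts of markers past the threshold below stand beside these shares of all genes. In RUNX1(41-214) against control 2.56% were lower and 1.73% higher, and in Runx1KO against control 0.113% were lower and 0.234% higher. The summed signal of 10 of 11 B cell markers was 1468 to 1828 in RUNX1(41-214), 4494 to 9649 in Runx1KO and 6104 to 6617 in control arrays, with 3 of 10 lower in RUNX1(41-214) against control. For 10 of 12 T and NK cell markers it was 326 to 474, 554 to 1195 and 1224 to 1644, with 4 lower in RUNX1(41-214) and 1 in Runx1KO. For 11 of 12 monocyte, macrophage and dendritic cell markers it was 3906 to 6376, 5455 to 7453 and 5011 to 8768, with 3 lower in RUNX1(41-214) and 0 past the threshold in Runx1KO. For 8 of 9 mast cell and basophil markers it was 8690 to 10053, 7033 to 7909 and 4133 to 4625, with 3 higher in RUNX1(41-214) and 1 in Runx1KO. For all 8 megakaryocyte and platelet markers it was 9387 to 12212, 6372 to 8067 and 3322 to 4650, with 3 higher in each of RUNX1(41-214) and Runx1KO. Mast cell and basophil genes went both ways, with 5 above 0 and 3 below in RUNX1(41-214) against control (median log2 fold change 0.11). In Runx1KO 4 lay above and 4 below (median 0.054), so the sum does not stand for every gene. Gata2 is in this list and among the KSL genes. The B cell list (4 above, 6 below) and the monocyte, macrophage and dendritic list (6 above, 5 below) also went both ways in RUNX1(41-214). Pax5 of the B cell list and Cd4 of the T and NK cell list lay near the lower end of the scale on every array (4.22 to 4.80 and 4.33 to 5.13). Other genes of both lists were brighter, as the sums show, so Pax5 and Cd4 do not stand for their lists. The part of these cells in the levels of Il1r1, Il1r2, Ltb, Tnfsf11, Ccl3 and Ptgs2 was not tested. The 10 of 11 granulocyte markers summed to 12030 to 14845 in RUNX1(41-214), 8676 to 14346 in Runx1KO and 8210 to 13729 in control arrays, with 1 higher in RUNX1(41-214) against control, and of 6 erythroid markers 2 were higher and 1 lower. Of these 10, the granule genes S100a8, S100a9, Ltf, Camp and Ngp were highest on RUNX1(41-214) replicate 1 and control replicate 1, Ngp being at 7.88 and 10.17 against 4.90 to 6.67 elsewhere. The list's sum did not set these 2 arrays apart, at 14790 and 11044. Without these 2 arrays Ptgs2 was at 1.41 in RUNX1(41-214) against control (adjusted p = 0.0351), and 0 of the 7 other pathway genes kept their calls, while calls over all genes in that comparison numbered 173, against 531 with all arrays. Several differences stayed about as large, with Ltb at -1.38, Il1r2 at -1.07, Gadd45b at -1.32 and Stat5a at 0.82. Il1r1 was at -1.46 in RUNX1(41-214) (adjusted p = 0.202) and -1.90 in Runx1KO (adjusted p = 0.180), Tnfsf11 at -0.97 and Bcl2l1 at 0.60.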

How the data were processed

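The authors deposited linear signal intensity values, 1 for each probe set, from 9 arrays. Per the labels' protocols, RNA came from Qiagen microcolumns and was amplified and biotin-labelled in 2 cycles (Affymetrix), which can distort ratios between genes. How the authors summarised and scaled the probes is not given in the sources used here. After 64 control probe sets were set aside, values were converted to log2(signal + 16) and quantile normalized, since array medians spanned 0.21. The probe set with the highest mean among those with 1 gene symbol (platform annotation) stood for each gene. limma 3.58.1 in R 4.3.3 (lmFit, eBayes with a trend) was fitted to all 9 arrays, two-sided, with Benjamini-Hochberg adjustment over 12393 genes. The number of arrays limits the precision (median SE 0.20). The p-values set each group difference against the spread between replicates, pooled over all 9 arrays and moderated over all genes. The sources of these replicates are labelled only as biological replicates. The procedure was tested on simulated data.

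The genes, lists and tests were chosen with earlier results of these data known. Values on every array are given for the brightest and dimmest gene of each role, and other genes shown in full are said to have been chosen after their values were seen. The other pathway genes are named where they passed, or else by the lowest p, with a few named after their values were seen. Alternatives were no quantile normalization, offsets of 1 and 50, removal of the dimmest 30% of genes, array weights, the mean of probe sets, all probe sets tested, only the 6 arrays compared, a replicate block, and omission of arrays.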

Additional observations from a re-analysis of the deposited data

How the results depend on the processing

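The count of members past the threshold was 0 in Runx1KO against control and in RUNX1(41-214) against Runx1KO under each of the 20 alternatives, including the fit with the replicate number as a block and the omission of each array (0 to 0). In RUNX1(41-214) against control the count of 0 became 2 without quantile normalization, 2 without dim genes and 2 with array weights (Birc3 and Ccl3 each time), 1 with an offset of 50 and 1 with the mean of probe sets (Ccl3), and 1 without both arrays of high 3′ to 5′ ratio (Nfkbia). It was 0 to 1 when single arrays were left out, with Nfkbia called without control replicate 2, Birc3 without control replicate 3 and Ptgs2 without RUNX1(41-214) replicate 1. It was 1 (Ptgs2) without both arrays of high neutrophil granule signal, an alternative chosen after seeing the data. In the F test the count became 1 (Ccl3) with array weights and with the mean of probe sets, and stayed 0 to 0 when single arrays were left out. The causes were not tested. Without dim genes fewer genes enter the adjustment and the spread is also estimated anew, and these were not separated. With the mean of probe sets the values of Ccl3, which has 1 probe set, were unchanged, and only other genes in the fit differed. The median log2 fold change of the members in Runx1KO against control was 0.13 without both arrays of high 3′ to 5′ ratio, against 0.041, and -0.025 to 0.091 when single arrays were left out. The medians were -0.017 to 0.060 in RUNX1(41-214) against control and -0.059 to 0.073 in RUNX1(41-214) against Runx1KO on leaving out single arrays. Of 1782 member values under alternatives, 13 had an adjusted p under 0.05 and 117 changed sign, none of them past the threshold. Over all genes the counts of 43, 531 and 168 ran from 6 to 66, from 173 to 768 and from 74 to 371. The labels do not say whether replicate numbers pair the arrays. Correlations of deviations between same-numbered Runx1KO and control arrays were 0.027, 0.41 and 0.42. Differently numbered Runx1KO and control arrays were at -0.47 to 0.14. Deviations sum to 0 within each group, so higher values for some pairs bring lower ones for others, and this contrast is partly built in. Same-numbered arrays of RUNX1(41-214) and either other group were at -0.17 to 0.20. A pairing of Runx1KO with control arrays thus remains possible. With the replicate block 0 members passed in each comparison. Dim members such as Tnf and Cxcl2 can hide changes that the offset compresses.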

Other observations

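Slfn2, a target on the further list and a regulator of immune cell quiescence, was named after its values were seen. It was at 8.42, 7.90 and 7.72 in RUNX1(41-214) cells and 8.79, 9.80 and 9.39 in Runx1KO cells, with 8.32, 7.91 and 8.59 in control cells. The Runx1KO arrays were above all others, at a log2 fold change of -1.31 ± 0.30 in RUNX1(41-214) against Runx1KO (adjusted p = 0.0601) and an adjusted p of 0.246 in Runx1KO against control, neither past the threshold. Tlr6, a partner of TLR2 in sensing bacterial lipopeptides, was at 0.70 ± 0.21 in RUNX1(41-214) against control (adjusted p = 0.103), with its 3 RUNX1(41-214) arrays above all other arrays.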
